A study of Drosophila melanogaster with 8 samples.

Results

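The chitinases and imaginal disc growth factors are related secreted proteins of the same glycoside hydrolase family, and 10 of their genes were followed here in whole adult females of Drosophila melanogaster. They are the growth factor genes Idgf1 (CG4472), Idgf2 (CG4475), Idgf3 (CG4559), Idgf4 (CG1780), Idgf5 (CG5154) and Idgf6 (CG5210) and the chitinase genes Cht2 (CG2054), Cht4 (CG3986), Cht8 (CG9357) and Cht9 (CG10531), chosen by name from the table of read counts. All 10 had a row among the 12082 rows that name a gene, and all 10 passed the filter on low counts.

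Messenger RNA was sequenced from 2 genotypes with 4 libraries each. The control flies were btl>DHR78, in which the driver of breathless (btl, the gene of the tracheal FGF receptor) expresses the nuclear receptor gene DHR78, also called Hr78. The mutant flies carried the same transgene and a pair of mutant alleles of the receptor gene, DHR78[1]/[3]. Females of both genotypes were taken at 1 week of age from a diet of 8% yeast and 9% sugar, and each library pools RNA of 2 collections of 12 females. The transgene was thus present in the controls too, and the comparison is of flies with and without the mutant alleles in that background.

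Chitinases cut chitin, the polymer of N-acetylglucosamine that stiffens the cuticle, lines the tracheal tubes and builds the peritrophic matrix, the sheet that separates food from the gut wall. Imaginal disc growth factors have the fold of a chitinase but lack the glutamate with which a chitinase cuts the polymer. They are known as secreted proteins of the hemolymph, made largely in the fat body and by blood cells, and were first found as factors that help cultured imaginal disc cells to grow. In Drosophila they are also known to take part in wound healing and in the protection of the chitin matrix of cuticle and trachea.

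The libraries held 19544675 to 33054191 counts, at which 3 counts equal 0.0908 to 0.153 per 1000000 counts of the unscaled total. Levels are given as CPM, counts per 1000000 of the library size after scaling between libraries. Hr78 was at 117 to 127 CPM in the controls and at 69.3 to 73.4 CPM in the mutants, so the groups did not overlap, and reads of the transgene are not separated from those of the chromosomal gene. Mutant replicate 2 stood apart, since the summed level of 24 male markers (genes of the testis and the male accessory gland) was 309 CPM there and 35.9 to 41.3 CPM in the other 7 libraries. All 24 were highest in that library, and 17 of them had at most 3 counts in each of the others. The fold changes of the 10 genes and the counts of called genes are therefore given with and without Mutant replicate 2. Transcripts of whole flies cannot show whether a level differs because there are fewer cells of a type or because each cell holds less RNA.

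Of the 10 genes, 4 rose and 1 fell in the mutant at an adjusted p of at most 0.05 (quasi-likelihood test of edgeR, Benjamini-Hochberg adjustment over all tested genes). Idgf2, Idgf4, Cht2 and Cht8 rose, and Cht4 fell. The other 5, Idgf1, Idgf3, Idgf5, Idgf6 and Cht9, did not pass. Over all 10525 tested genes 19.6% passed, with 8.46% higher and 11.1% lower in the mutant. Of these 2063 calls 890 were higher and 1173 lower. With upper quartile scaling 2371 genes were called, 1499 higher and 872 lower. The median log2 fold change of the 10 genes was 0.28, against 0.01 over all tested genes. The libraries of the genotypes did not overlap for 5 of the 10, Idgf2, Idgf4, Cht2, Cht4 and Cht9, beside 25% of all tested genes. Without Mutant replicate 2, 6 of the 10 passed (5 higher and 1 lower), beside 16.2% of all genes in that fit. The count was 3 without Control replicate 3, Control replicate 4, Mutant replicate 1, Mutant replicate 3 or Mutant replicate 4. Among all tested genes those fits called 1457 to 1648, against 2063 with all libraries.

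**Figure D1:**
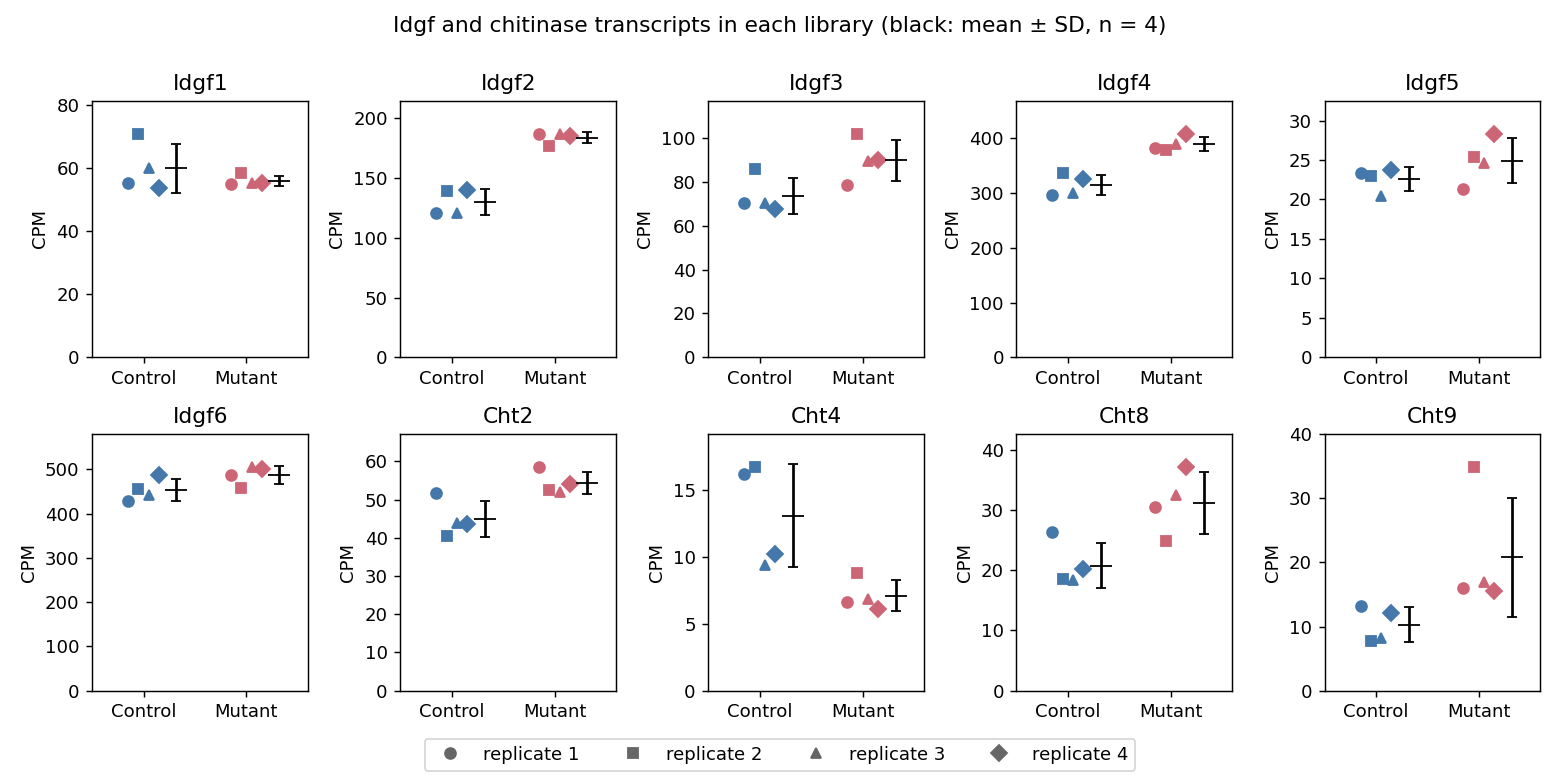
Level of each of the 10 genes (CPM, linear axes from 0) in the 4 Control and 4 Mutant libraries, with 1 symbol per replicate and the mean ± SD in black. The Idgf2 points lie at 121 to 140 CPM in the controls and 177 to 187 CPM in the mutants, and the Cht9 point of Mutant replicate 2 (34.8 CPM) lies far above the other 3 mutants.

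Idgf1, Idgf2 and Idgf3 are neighbours on arm 2L, in the same orientation, in the Release 6 annotation. Idgf2, the growth factor purified from the medium of cultured disc cells, was the Idgf gene with the largest change. It was at 121, 139, 121 and 140 CPM in Control replicates 1 to 4 and at 187, 177, 187 and 185 CPM in Mutant replicates 1 to 4. Every mutant library lay above every control library, and the mutant libraries lay closer together than the controls. The mean rose from 130 ± 10.7 to 184 ± 4.75 CPM (SD, n = 4 each), a log2 fold change of 0.50 with a standard error (SE) of 0.06, at an adjusted p of 0.000287 (edgeR), or 1.42-fold. With Mutant replicate 2 left out the log2 fold change of Idgf2 was 0.52 and its adjusted p 0.000516 (edgeR).

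Its neighbour Idgf1 showed no such shift. Idgf1 was at 55.3, 70.9, 60.1 and 53.6 CPM in the controls and at 54.9, 58.6, 55.4 and 55.3 CPM in the mutants. The mutant values fall inside the range of the controls, which was stretched upward by Control replicate 2. Its log2 fold change was -0.10 with an SE of 0.08 at an adjusted p of 0.417 (edgeR), and -0.12 with 0.387 when Mutant replicate 2 was left out.

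Idgf3, known for its part in wound healing, lay near the threshold. It was at 70.4, 86.1, 70.5 and 67.8 CPM in the controls and at 78.8, 102, 89.8 and 90 CPM in the mutants. Control replicate 2 was above Mutant replicate 1, so the groups overlapped by that pair of libraries. The log2 fold change of Idgf3 was 0.29 with an SE of 0.09 at an adjusted p of 0.0542 (edgeR). Without Control replicate 2 it was 0.37 with an adjusted p of 0.00999, and without Mutant replicate 1 it was 0.35 with 0.0279. Without Mutant replicate 2 it was 0.22, with an adjusted p of 0.107 (edgeR).

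Idgf4, a gene on the X chromosome, rose from 315 ± 18.7 to 390 ± 12.7 CPM. Its levels were 297, 336, 301 and 326 CPM in the controls and 383, 379, 389 and 408 CPM in the mutants. The lowest mutant library was thus above the highest control library. The log2 fold change was 0.31 with an SE of 0.05 at an adjusted p of 0.00237 (edgeR), or 1.24-fold. It was 0.32 without Mutant replicate 2, with an adjusted p of 0.00408 (edgeR). Idgf2 and Idgf4 passed in each of the 14 alternative fits.

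Idgf5 and Idgf6 lie apart from each other on arm 2R. Idgf6, also known as DS47 and needed for a firm cuticle and tracheal matrix, had the most counts of the 10 genes. Its levels were 429, 455, 441 and 488 CPM in the controls and 486, 458, 504 and 500 CPM in the mutants. The groups overlapped, and the log2 fold change was 0.10 with an SE of 0.05 at an adjusted p of 0.187 (edgeR). Idgf5 was at 20.4 to 23.7 CPM in the controls and at 21.3 to 28.3 CPM in the mutants, again with overlap. Its log2 fold change was 0.13 with an SE of 0.09 at an adjusted p of 0.306 (edgeR). Leaving out Mutant replicate 2 gave 0.13 for Idgf6 and 0.12 for Idgf5, with adjusted p of 0.135 and 0.428 (edgeR). Summed over the 6 Idgf genes, the level was 996 to 1109 CPM in the controls and 1200 to 1266 CPM in the mutants, a sum that Idgf6 and Idgf4 dominate.

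Among the chitinases, Cht4, Cht8 and Cht9 are neighbours on arm 2R, and Cht2 lies on arm 3L. Cht4 was the gene of the 10 that fell. It was at 16.2, 16.7, 9.38 and 10.2 CPM in the controls and at 6.62, 8.83, 6.86 and 6.14 CPM in the mutants. The controls formed a high pair and a low pair, and the highest mutant lay just below the lowest control. The mean went from 13.1 ± 3.87 to 7.11 ± 1.18 CPM, which is a log2 fold change of -0.89 with an SE of 0.21 at an adjusted p of 0.0203 (edgeR), or 54.1% of the control level. Without Mutant replicate 2 the log2 fold change of Cht4 was -1.01 and the adjusted p 0.0161. The call was lost without Mutant replicate 1 (adjusted p 0.057), Mutant replicate 3 (0.0564) or Mutant replicate 4 (0.0553, edgeR), while the log2 fold change stayed between -0.87 and -0.82.

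Markers of the midgut also differed between the genotypes. Of 14 tested midgut genes, which are mostly secreted proteases, 9 fell and none rose, or 8 without Mutant replicate 2, beside 11.1% of all genes that fell. The summed level of the list was 7817, 5757, 4361 and 5306 CPM in the controls and 3324, 2517, 3207 and 2356 CPM in the mutants. As for Cht4, each mutant library lay below each control library, and Control replicates 1 and 2 were the highest. The neighbours Cht8 and Cht9 went the other way, with log2 fold changes of 0.58 and 1.01, although Cht9 did not pass (adjusted p 0.0771, edgeR). Among the mutants the orders differed, with Cht4 highest in Mutant replicate 2 (8.83 CPM) and the midgut sum highest in Mutant replicate 1 (3324 CPM). The part of the midgut in the levels of Cht4, Cht8 and Cht9 was not tested.

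Cht8, the neighbour of Cht4, changed in the other direction. It was at 26.3, 18.5, 18.4 and 20.2 CPM in the controls and at 30.5, 24.8, 32.5 and 37.1 CPM in the mutants. The groups overlapped because Mutant replicate 2 was below Control replicate 1. The mean rose from 20.8 ± 3.73 to 31.2 ± 5.08 CPM, a log2 fold change of 0.58 with an SE of 0.15 at an adjusted p of 0.0289 (edgeR), or 1.49-fold. It was 0.67 without Mutant replicate 2, with an adjusted p of 0.00827 (edgeR). The call of Cht8 was lost without Control replicates 2, 3 or 4 or Mutant replicates 1, 3 or 4 (adjusted p 0.0559 to 0.0769), and with an offset for exonic length (0.0525, edgeR), while the log2 fold change stayed between 0.49 and 0.59.

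Cht9 was at 13.2, 7.8, 8.16 and 12.1 CPM in the controls and at 16, 34.8, 16.9 and 15.6 CPM in the mutants. All mutants were above all controls, and Mutant replicate 2 was far above the other mutants. With all libraries the log2 fold change of Cht9 was 1.01 with an SE of 0.33, and the adjusted p of 0.0771 (edgeR) missed the threshold. Without Mutant replicate 2 the mutant mean was 16.2 ± 0.631 CPM (n = 3), and Cht9 passed with a log2 fold change of 0.64 at an adjusted p of 0.0401 (edgeR). Mutant replicate 2 was the library with the male markers, and the part of male transcripts in its Cht9 level was not tested. Exons of Cht9 overlap an antisense RNA gene, CR44703, on the opposite strand in the Release 6 annotation, and its reads were not analysed here.

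Cht12, another chitinase gene of the same cluster, was also high in Mutant replicate 2. It was at 3.33 CPM there, at 0.605 to 0.71 CPM in the other mutants and at 0.316 to 0.516 CPM in the controls, and did not pass (log2 fold change 1.72, adjusted p 0.113, edgeR). Its log2 fold change was 0.69 without that library, with an adjusted p of 0.125 (edgeR). In the Release 6 annotation exons of Cht12 overlap those of Cht8 on the opposite strand. The use of strand in the counting is not given in the sources used here, so reads of that overlap cannot be told apart. Cht12 was at a much lower level than Cht8 in every library.

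Cht2, a chitinase known from cuticle formation, rose slightly. It was at 51.6, 40.5, 43.9 and 43.6 CPM in the controls and at 58.4, 52.6, 52.1 and 54.1 CPM in the mutants. The groups did not overlap, although Control replicate 1 came close to the lowest mutants. The mean went from 44.9 ± 4.73 to 54.3 ± 2.86 CPM, a log2 fold change of 0.27 with an SE of 0.07 at an adjusted p of 0.024 (edgeR). Leaving out Mutant replicate 2, the log2 fold change of Cht2 was 0.29 with an adjusted p of 0.0329. The call was lost without Control replicates 2, 3 or 4 or Mutant replicate 1 (adjusted p 0.0552 to 0.0639, edgeR), at log2 fold changes of 0.23 to 0.26. Exons of Cht2 overlap those of CG13921 on the opposite strand, and CG13921 was at 34.6 ± 0.666 CPM in the controls and 31.7 ± 2.22 CPM in the mutants.

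**Figure D2:**
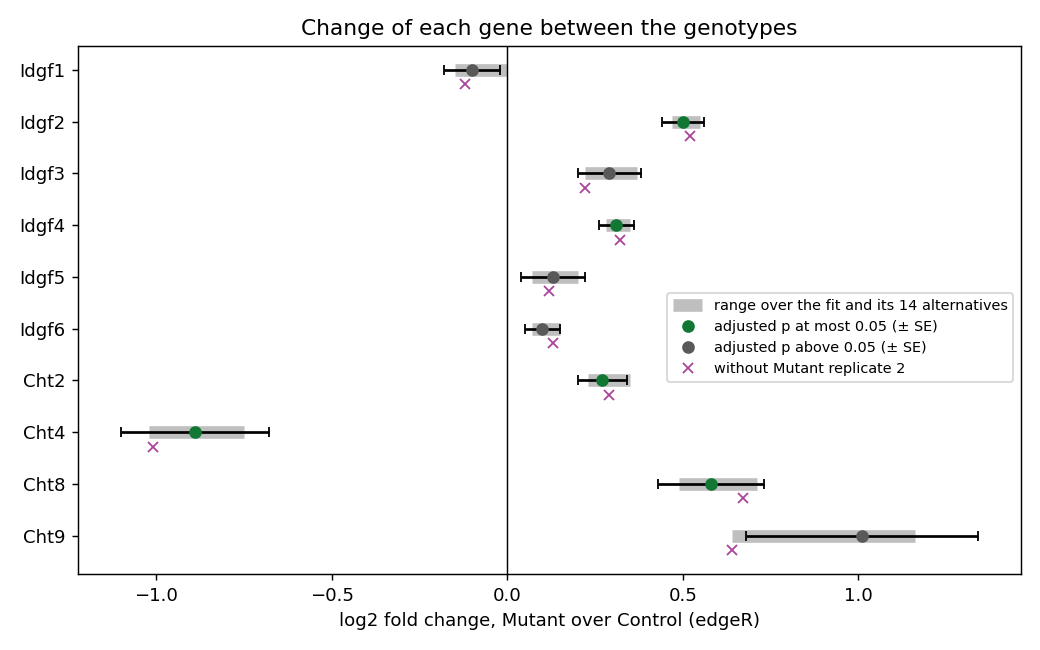
Log2 fold change of mutant over control for each of the 10 genes, with bars of ± SE, green where the adjusted p is at most 0.05 (edgeR). Grey bands span the fit and its 14 alternatives and crosses leave out Mutant replicate 2. Cht4 lies farthest below 0, Idgf1 lies close to 0, and Cht9 moves from 1.01 to 0.64 without that library.

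Neighbouring genes can be compared within a library by the ratio of their counts, which does not depend on how libraries are scaled. This was done for the 6 pairs within the Idgf cluster on 2L and the chitinase cluster on 2R, a choice made with the fold changes known. Exact two-sided permutation tests on the log2 ratios can reach 0.0286 at the lowest with 4 libraries against 4, and p-values were adjusted over the 6 pairs.

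The ratio of Idgf2 to Idgf1 was 2.18, 1.96, 2.01 and 2.61 in the controls and 3.41, 3.02, 3.37 and 3.34 in the mutants. The groups did not overlap, and the log2 ratio was 0.59 higher in the mutant (exact permutation p = 0.0286, adjusted 0.0429), or 0.63 without Mutant replicate 2. The ratio of Idgf3 to Idgf1 ran from 1.17 to 1.27 in the controls and from 1.44 to 1.74 in the mutants, a log2 difference of 0.38 with the same p-values by the exact permutation test, and of 0.34 without Mutant replicate 2. The ratios of Idgf2 and of Idgf3 to Idgf1 were thus higher in every mutant library than in every control library. These ratios share Idgf1, so they are not independent, and Idgf3 by itself did not pass (adjusted p 0.0542, edgeR). The ratio of Idgf3 to Idgf2 overlapped between the genotypes, at 0.485 to 0.621 and 0.421 to 0.574, with a log2 difference of -0.21 and an exact permutation p of 0.0857 (adjusted 0.103), or -0.29 without Mutant replicate 2.

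In the chitinase cluster the ratio of Cht8 to Cht4 was 1.62, 1.11, 1.96 and 1.99 in the controls and 4.61, 2.81, 4.74 and 6.04 in the mutants. The lowest mutant was above the highest control, and the log2 ratio was 1.43 higher in the mutant (exact permutation p = 0.0286, adjusted 0.0429), or 1.65 without Mutant replicate 2. The ratio of Cht9 to Cht4 was 0.468 to 1.19 in the controls and 2.42 to 3.94 in the mutants. Its log2 difference was 1.81, and 1.64 without Mutant replicate 2. The exact permutation test gave the same p-values, but for this pair its outcome was fixed in advance. Every mutant library was already below every control library for Cht4 and above every control library for Cht9. The ratios of Cht8 and of Cht9 to Cht4 were thus higher in the mutant, and they share Cht4, so they are not independent. No ratio with Cht12, which lies between Cht8 and Cht4, was tested. For Cht9 to Cht8 the ratios overlapped, with an exact permutation p of 0.514, and Mutant replicate 2 was at 1.4 against 0.422 to 0.526 in the other mutants. Without it the log2 difference of that pair was -0.003.

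**Figure D3:**
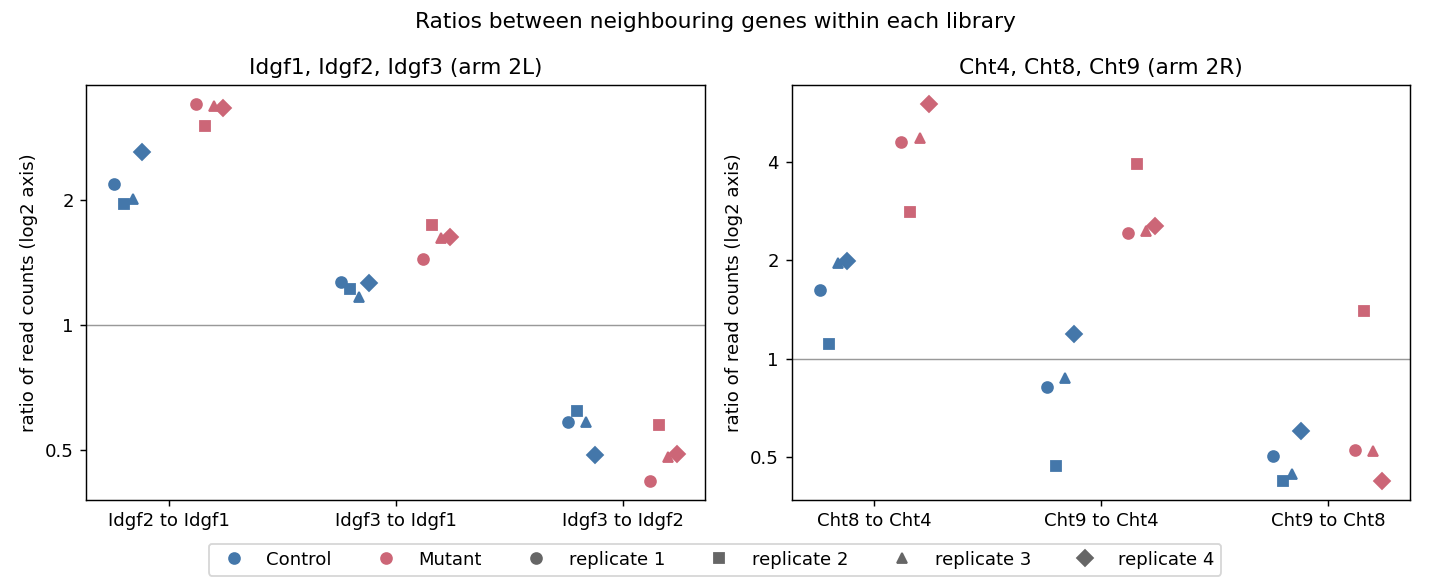
Ratio of read counts between neighbouring genes in each library (log2 axes), for Idgf1, Idgf2 and Idgf3 on the left and Cht4, Cht8 and Cht9 on the right, with 1 symbol per replicate. Ratios over Idgf1 and ratios over Cht4 separate the genotypes, and the ratio of Cht9 to Cht8 does not.

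Levels were compared between genes as CPM per kilobase, using the combined length of all exons of a gene in the Release 6 annotation. In the controls the order was Idgf6 (250 ± 14 CPM per kilobase), Idgf4 (172 ± 10.2), Idgf2 (72.4 ± 5.97), Idgf1 (41.5 ± 5.39) and then Idgf3 (18.6 ± 2.12), with SD over n = 4 libraries. The first 4 did not overlap with each other over the libraries. Below them Idgf3 at 17.1 to 21.8 CPM per kilobase overlapped with Cht8 at 12.7 to 18.2. Idgf5 at 13.7 to 15.9 and Cht2 at 13.3 to 17 overlapped with Cht8 and with each other, so their order is not settled by these libraries. Cht4 and Cht9 were lowest, both with a mean of 8.9 CPM per kilobase.

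In the mutants Idgf6, Idgf4, Idgf2 and Idgf1 kept that order, with Idgf6 at 269 ± 11.4, Idgf4 at 212 ± 6.91 and Idgf2 at 102 ± 2.64 CPM per kilobase. Below them Idgf3 at 19.9 to 25.7 CPM per kilobase overlapped with Cht8 at 17.2 to 25.6, so their order is not settled by these libraries. Cht4 was alone at the bottom at 4.83 ± 0.803 CPM per kilobase, while Cht9 was at 13.5 to 29.9. The place of Idgf3 and Cht2 depends on the transcript, since their annotated transcripts run from 1649 to 3801 and from 1645 to 2690 bases. With the shortest transcript as the length, Idgf3 was at 44.7 and Cht2 at 27.3 CPM per kilobase in the controls, and Idgf3 then stood above Idgf1.

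**Figure D4:**
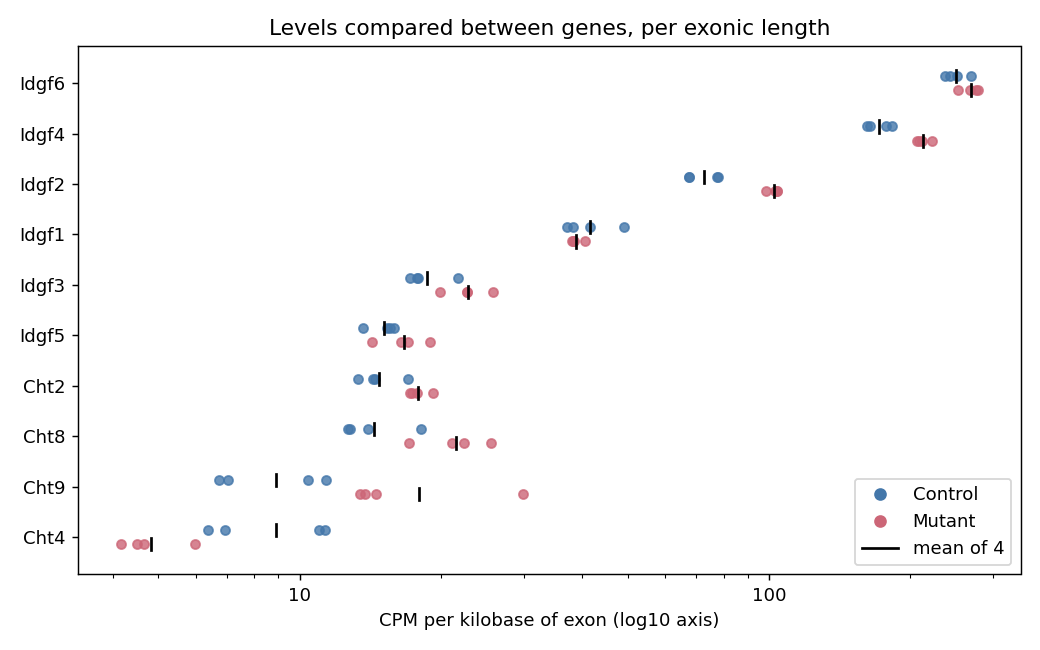
CPM per kilobase of exon (log10 axis) for the 10 genes, ordered by the control mean, with 1 point per library and a black bar at the mean of 4 libraries. Idgf6 and Idgf4 stand highest at 250 and 172 in the controls, and Cht4 separates from Cht9 in the mutants.

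Other genes of the chitin pathway were read from lists of 44 rows, of which 36 were tested. Of these, 2 rose and 8 fell, or 27.8% beside 19.6% of all genes, and their median log2 fold change was -0.14. In the fit without Mutant replicate 2, 2 rose and 6 fell, and of the 10 genes called in all libraries nst and Peritrophin-15b no longer passed. The lists were chosen from general knowledge, with earlier results of these data known.

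Of 9 rows of other chitinase-family genes 1 fell and none rose, or 11.1% called beside 19.6% of all tested genes. The gene that fell was Cht7, known in the beetle Tribolium for a role in organizing the chitin of the cuticle, from 2.45 ± 0.422 to 1.21 ± 0.0878 CPM (adjusted p 0.00315, edgeR). Cht5 and Cht10, chitinases known in Tribolium for the turnover of old cuticle at molting, had log2 fold changes of -0.58 and 0.27 and did not pass (adjusted p 0.134 and 0.139, edgeR). Cht6 is split over 3 rows in the table, and none of them passed.

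Of 8 tested genes of chitin synthesis 4 fell and none rose, or 50% called beside 19.6% of all tested genes. Chs2, the chitin synthase of the gut, fell from 39.1 ± 6.35 to 26.6 ± 2.66 CPM (adjusted p 0.00945), and kkv, the chitin synthase of cuticle and trachea, from 1.12 ± 0.262 to 0.553 ± 0.17 CPM (0.0261, edgeR). Gfat1 and nst, which encode enzymes on the path to the chitin precursor, fell by 0.31 and by 0.17 on the log2 scale. The call of kkv was lost without Control replicates 2 or 4, without Mutant replicates 1 or 4 and with no filter on low counts. The call of nst was lost without Control replicate 2 or Mutant replicate 2 and with upper quartile scaling, and that of Gfat1 without Control replicate 3.

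Of 4 tested chitin deacetylase genes 1 rose and 2 fell, or 75% called beside 19.6% of all tested genes. Cda9 rose from 0.691 ± 0.383 to 4.09 ± 0.654 CPM (adjusted p 0.000304), while Cda5 fell from 16.3 ± 1.07 to 11.6 ± 1.21 CPM and serp, a deacetylase of the tracheal lumen, from 4.78 ± 1.46 to 2.49 ± 0.206 CPM (adjusted p 0.00364 and 0.00987, edgeR). None of 3 genes of beta-hexosaminidases, which split chitin fragments into single sugars, passed. Of 12 tested genes of chitin-binding matrix proteins 1 rose and 1 fell, or 16.7% called beside 19.6% of all tested genes. Crys rose from 6.82 ± 0.607 to 12.3 ± 1.71 CPM (adjusted p 0.000855), and Peritrophin-15b fell by 0.94 on the log2 scale with an adjusted p of 0.0498 (edgeR). The call of Peritrophin-15b was lost without Control replicates 1, 2 or 3 or Mutant replicates 2, 3 or 4, with upper quartile scaling and with no filter.

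**Figure D5:**
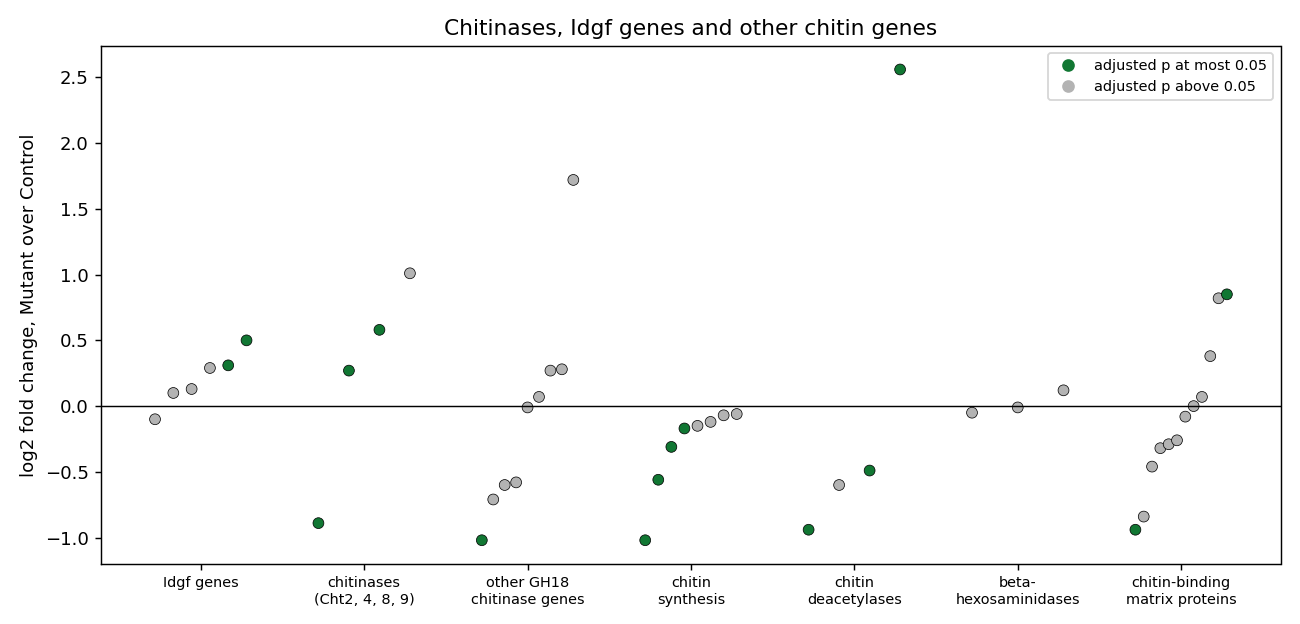
Log2 fold change of mutant over control for the 6 Idgf genes, the 4 chitinases and the tested genes of 5 other chitin lists, with 1 point per table row, green where the adjusted p is at most 0.05 (edgeR). The Idgf points run from -0.10 to 0.50, the points for chitin synthesis all lie below 0, and the highest point is Cda9.

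Markers of tissues known to make these proteins were read beside them, and their counts stand beside 8.46% of all genes called higher and 11.1% called lower. Of 12 tested fat body genes 1 rose and 1 fell, with or without Mutant replicate 2, and their summed level was 26015 to 38744 CPM in the controls and 26189 to 32010 CPM in the mutants. Of 13 blood cell genes 1 fell and none rose, and none passed without Mutant replicate 2, with a sum of 763 to 1039 CPM in the controls and 679 to 769 CPM in the mutants. The summed levels overlapped between the genotypes in both lists, for the blood cells only by Control replicate 4 and Mutant replicate 1. Of 8 tracheal genes, which include serp, verm and Gasp of the chitin lists, 3 fell and none rose, with or without Mutant replicate 2, with a sum of 83.4 to 107 CPM in the controls and 69.1 to 79.2 CPM in the mutants. Of 15 eggshell genes of the ovarian follicle cells none passed, with or without that library, and their sum was 8770 to 17065 CPM in the controls and 9328 to 15122 CPM in the mutants. The part of these tissues in the levels of the 10 genes was not tested.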

How the data were processed

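For 8 libraries of polyA RNA the authors deposited gene-level read counts in 1 table, and these counts are taken as not normalized, since they are whole numbers and library totals differ widely (19544675 to 33054191) while TMM factors lie between 0.954 and 1.024. The submitters' processing notes name the build dm3 and the tool DESeq. The sources used here do not give the aligner, counter, annotation or strand handling, so reads of overlapping genes or close copies may be shared. Groups and replicate numbers come from the sample titles, and 0 columns were left unmapped. Of 12083 rows, 1 names no gene and was left out (0.0154% to 0.0176% of each library). Rows were named through the RefSeq table of Release 6, by locus tag for 11511 and by synonym for 435, and exonic lengths come from the Ensembl annotation of Release 6. No coordinates are given because the builds differ, and no sequences were used here.

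Counts were filtered with filterByExpr (minimum count 10), scaled with TMM and tested with edgeR 4.0.16 in R 4.3.3 (robust quasi-likelihood, no covariates, two-sided, Benjamini-Hochberg over 10525 genes, threshold 0.05), and with DESeq2 1.42.0 as an alternative. CPM values are counts over TMM-scaled library sizes. Standard errors were taken as the size of the log2 fold change over the root of F. Ratios were tested in SciPy. Libraries of a genotype differed by more than sampling noise (chi-square per degree of freedom 10.4 to 36.3). Every library is a pool, so p-values measure the spread between pools. Same-numbered libraries had correlations over genes of 0.21, -0.05, -0.1 and 0.04 in their deviations, against -0.2 to 0.23 for differently numbered ones. Such values cannot show whether the numbers pair the libraries, and the labels name no pairing. The 10 genes, the lists and the tests were chosen with earlier results of these data known. The text names the 10 genes, up to 4 called genes per chitin list, by smallest adjusted p, and the 2 genes nearest in pattern to each of the 10 that passed. Cht5, Cht6, Cht10, Cht12 and CG13921 were named after their values were seen.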

Additional observations from a re-analysis of the deposited data

Results flagged for a closer look

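In 3 of 20 groups of 4 libraries (10 genes in each genotype) 1 library lay far from the others by the gap between it and its nearest neighbour, relative to the range of the group, where chance gives about 1 in 20. Cht9 was at 34.8 CPM in Mutant replicate 2 and at 15.6 to 16.9 CPM in the other mutants. Idgf1 was at 58.6 CPM in Mutant replicate 2 and at 54.9 to 55.4 CPM in the other mutants, a small gap among values that lay close together. Idgf3 was at 86.1 CPM in Control replicate 2 and at 67.8 to 70.5 CPM in the other controls.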

How the results depend on the processing

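The 10 genes kept the sign of their log2 fold change in all 14 alternatives, and 118 of the 140 values also stayed on the same side of the threshold. The number of the 10 that passed (5) was 5 with RLE scaling, with no filter and with an offset for exonic length, 6 with upper quartile scaling and 7 with DESeq2, and ran from 3 to 6 when 1 library was left out. The counts of all genes ran from 1457 to 2405 over the alternatives, and those of the chitin lists from 7 to 12. With the replicate block 2405 genes, 6 of the 10 and 10 of the chitin lists passed, and Idgf3 was past the threshold (adjusted p 0.00457, edgeR). Idgf3 also passed with DESeq2 (0.0197), upper quartile scaling (0.0311) and the length offset (0.0261), and Cht9 passed with DESeq2 (0.0223). The causes were not tested. The least abundant of the 10 genes had 142 counts in its lowest library. That gene, Cht4, had a coefficient of variation of 29.5% over the controls and 16.6% over the mutants.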

Other observations

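For each of the 5 genes that passed, the 2 genes with the most similar pattern over the 8 libraries were looked up among 9397 genes with a mean of at least 2 CPM, by the root mean square difference of gene-centred log2 CPM (0.1 added). The nearest genes lie below the median gene by construction, and centring over both genotypes keeps the genotype difference in the pattern. A small distance thus shows no link between genes. For Idgf2 the nearest were CG9008 (0.0516) and lbm (0.0709), where the median gene lay at 0.279. For Idgf4 they were Rtel1 (0.0312) and bip1 (0.0405), with a median of 0.194. Pu (0.0371) and UGP (0.0492) were nearest to Cht2, with a median of 0.202, and grass (0.0919) and Elal (0.116) to Cht8, with a median of 0.37. For Cht4 the nearest were Hers (0.198) and Muc68E (0.203), with a median of 0.529. Hers was at 59.2 CPM in the controls and 36.4 CPM in the mutants, and Muc68E at 18 and 9.66 CPM.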
